A study of Rattus norvegicus and Mus musculus with 24 samples.

Results

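The 43 genes described here are listed for the later segments of the nephron. These are the thick ascending limb of the loop of Henle, the distal convoluted tubule, the connecting tubule and the collecting duct. A listing does not mean that a gene is expressed only in that segment, and this was not tested. The genes were chosen by name, with 10 listed for the thick limb and 13 for the distal convoluted tubule. Another 11 were listed for the connecting tubule and the principal cell, and 9 for the intercalated cell. All 43 stand among the 17376 gene symbols of the mouse table and 37 among the 14931 of the rat table. SLC12A3, KCNJ1, KLHL3, NEDD4L, SLC26A4 and RHBG were not analysed here in the rat.

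RNA sequencing covered kidneys of 4 mice and 8 rats without Ctns (KO) and of 4 mice and 8 rats with it (WT), 24 libraries in all and 1 per animal. Ctns encodes cystinosin, the lysosomal cystine exporter that is defective in cystinosis, and the comparison asks what its loss does to the kidney transcriptome. The mice were on a C57BL/6 and the rats on a Sprague-Dawley background, the controls were littermates, and no transgene, Cre or drug is named for the sequenced groups. The mice were adult, and the study's reporting summary names only females for its mouse experiments. The age and sex of the sequenced rats are not given in the sources used here. The rats carry the numbers 17 to 24 and 25 to 32, WT odd and KO even, so each number range holds 4 WT and 4 KO rats. What the ranges stand for is not stated, and they are called number ranges here. P-values measure the spread between these animals.

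The thick ascending limb takes up sodium, potassium and chloride without water and secretes uromodulin, the most abundant protein of normal urine. The distal convoluted tubule reabsorbs sodium chloride through a thiazide-sensitive cotransporter under control of the WNK kinases, and fine-tunes magnesium. Further on, principal cells admit sodium through the epithelial sodium channel under aldosterone, while intercalated cells secrete acid or base and depend on the forkhead factor FOXI1.

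The libraries held 19309371 to 44449845 reads on genes in the mice and 24684097 to 40629873 in the rats. CTNS, the targeted gene, was lower in every KO mouse, at 0.319 to 0.342 of the library's 75th percentile against 0.824 to 1.03 in WT mice. In rats it was at 16.8 to 22.2 CPM (reads scaled to a common library total) in KO and 19.2 to 27.8 CPM in WT animals, a log2 fold change of -0.22 ± 0.07 (SE; adjusted p = 0.0154, edgeR), and the groups overlapped, so that in rats the transcript checks the labels only weakly. The samples are labelled kidney cortex and also proximal tubule cells, and one label describes microdissected tubules. The study's methods name kidney cortex for the sequenced RNA and microdissected proximal tubules for its microarrays. The share of distal nephron in the dissected tissue is not known. Distal nephron RNA was present in every library: UMOD had at least 82021 reads in each mouse and at least 49061 in each rat, and FOXI1 at least 1019 and 1750. In bulk RNA, fewer cells of a type and less RNA per cell cannot be told apart.

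Promoters are shown for 4 members whose rat transcripts differed between KO and WT with adjusted p under 0.05: UMOD, both sodium channel genes that rose together, and KCNJ16, which fell. Windows in the RefSeq promoter table of rat build GRCr8 were matched for 38 of the 43 members. ELF5, FXYD2, SCNN1A, SLC4A1 and TFAP2B had no entry. For KCNJ1, SGK1, SLC12A1 and TRPM6 the first of several windows was read. Each sequence below is the 250 bases before the annotated start, written 5′ to 3′ on the gene's strand, with capitals marking promoter motifs on either strand. The TATA box is spelled TATAAA. The CAAT box is spelled CCAAT. The GC box is spelled GGGCGG.
UMOD (GRCr8, chr1:183261017-183261266, minus strand): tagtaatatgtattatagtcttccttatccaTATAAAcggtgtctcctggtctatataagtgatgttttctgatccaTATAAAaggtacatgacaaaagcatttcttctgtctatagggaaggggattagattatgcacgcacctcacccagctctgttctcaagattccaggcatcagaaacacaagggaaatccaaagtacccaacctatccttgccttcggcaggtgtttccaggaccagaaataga
SCNN1B (GRCr8, chr1:185861126-185861375, plus strand): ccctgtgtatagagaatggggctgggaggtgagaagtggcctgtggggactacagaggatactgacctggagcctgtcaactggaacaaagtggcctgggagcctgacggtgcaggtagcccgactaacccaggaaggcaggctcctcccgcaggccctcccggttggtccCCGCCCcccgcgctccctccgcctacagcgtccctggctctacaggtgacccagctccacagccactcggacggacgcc
SCNN1G (GRCr8, chr1:185735975-185736224, plus strand): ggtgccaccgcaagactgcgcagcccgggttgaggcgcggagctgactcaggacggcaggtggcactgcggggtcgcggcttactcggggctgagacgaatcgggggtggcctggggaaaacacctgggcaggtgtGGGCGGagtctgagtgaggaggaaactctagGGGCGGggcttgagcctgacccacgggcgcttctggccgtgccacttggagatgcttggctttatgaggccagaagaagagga
KCNJ16 (GRCr8, chr10:96517074-96517323, plus strand): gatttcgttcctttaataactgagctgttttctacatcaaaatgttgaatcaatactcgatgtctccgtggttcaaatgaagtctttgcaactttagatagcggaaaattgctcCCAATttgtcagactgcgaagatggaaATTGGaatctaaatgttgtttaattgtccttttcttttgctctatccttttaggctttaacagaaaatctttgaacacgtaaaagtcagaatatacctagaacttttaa
The 4 windows differ in these letters: UMOD held 2 TATA boxes and no GC box, SCNN1B and SCNN1G held 1 and 2 GC boxes and no TATA box, and KCNJ16 held 2 CAAT boxes. GC boxes stood in 18 of the 38 member windows and in 30.5% of all 33469 rat windows of this length, CAAT boxes in 17 and 34%, and TATA boxes in 5 and 12.9%. The letters TGTTTAC, bound by forkhead factors, were in no member window and in 3.21% of all windows. TCAAGGTCA, bound by estrogen-related receptors such as ESRRB, was in no member window and in 0.388% of all. The GATA-factor letters AGATAAG were in 1 member window (KCNJ10) and in 2.54% of all. The shorter HNF1 letters GTTAAT were in 2 member windows and in 6.45% of all. The shorter steroid receptor letters TGTTCT were in 5 and in 17.5%. AP-2 letters (a family that includes TFAP2B) spelled GCCNNNGGC were in 9 and in 12.6%. The whole HNF1 and steroid receptor sites were in no member window and in 0.00299% and 0.012% of all. These are matches of letters, not sites.

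The members spanned a wide range of levels. Values were scaled to the 75th percentile of each library and divided by the bases of exon in GENCODE vM21. Exons were merged over all annotated transcripts of a gene, which can be longer than the transcript expressed. The order of levels depends on these lengths (2763 bases for UMOD and 4005 for FXYD2). By this measure UMOD, on chromosome 7 of GRCm38 from 119462711 to 119479282, had the highest level in WT mice, at 35.3 ± 3.08 per kb (SD, n = 4). FXYD2, a regulatory subunit of the sodium pump, followed at 9.62 ± 1.44 per kb. Below it, the potassium channel subunit KCNJ16 (4.86 ± 0.194), the loop-diuretic target SLC12A1 (4.07 ± 0.9) and the thiazide target SLC12A3 (3.8 ± 0.499) were closer together. Per kb, SLC12A1 and SLC12A3 did not differ beyond their spread, with merged exons of 5763 and 11119 bases. Before the division they did not overlap in WT mice, at scaled values of 19.6 to 31.04 and 36.4 to 47.4. Their difference was not tested. The claudin CLDN14 was the lowest. Mouse libraries held 0 to 19 of its reads, rat libraries 0 to 9, and it was tested in neither species. Reads of the calcium-binding protein PVALB numbered 865 to 1975 in the mouse libraries but 0 or 1 in those of the rat, where it was not tested. After these low values were set aside, 42 members were tested in the mouse and 35 in the rat. Rat WNK4 had the same reads in every library as its neighbour VPS25, so its rat values cannot be assigned to either gene. WNK4 is still counted among the 35 rat members and in their shares, medians and sums.

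In mice, 2 of 42 members were higher in KO kidneys with adjusted p under 0.05 (limma), against 6.6% of all 13132 genes tested, and 0 were lower, against 2.38% of all. At an unadjusted p under 0.05, 7 members were higher and 1 was lower. The share of all genes at an unadjusted p was not counted, here or below. On reads recovered from the scaled values, edgeR and DESeq2 each gave 1 lower member, KCNJ16. In rats over both number ranges, 6 of 35 members were higher and 3 were lower in KO kidneys (edgeR quasi-likelihood), shares of 17.1% and 8.57% beside 21.4% and 22.6% of all 11839 genes. The median log2 fold change was 0.04 over the members and -0.02 over all genes.

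Each number range was also read on its own. In rats 17 to 24, edgeR called 0 of 35 members in either direction, while 5.05% of all genes were higher and 1.91% lower. DESeq2 and limma-voom gave 0 as well, and 1 member was higher and 2 were lower at an unadjusted p under 0.05. In rats 25 to 32, 9 members were higher and 3 were lower, beside 23.7% and 26.2% of all genes, with a median log2 fold change of 0.12 over the members and -0.01 over all genes. The test of the difference between the ranges, which bears on this contrast directly, is given further down.

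**Figure D1:**
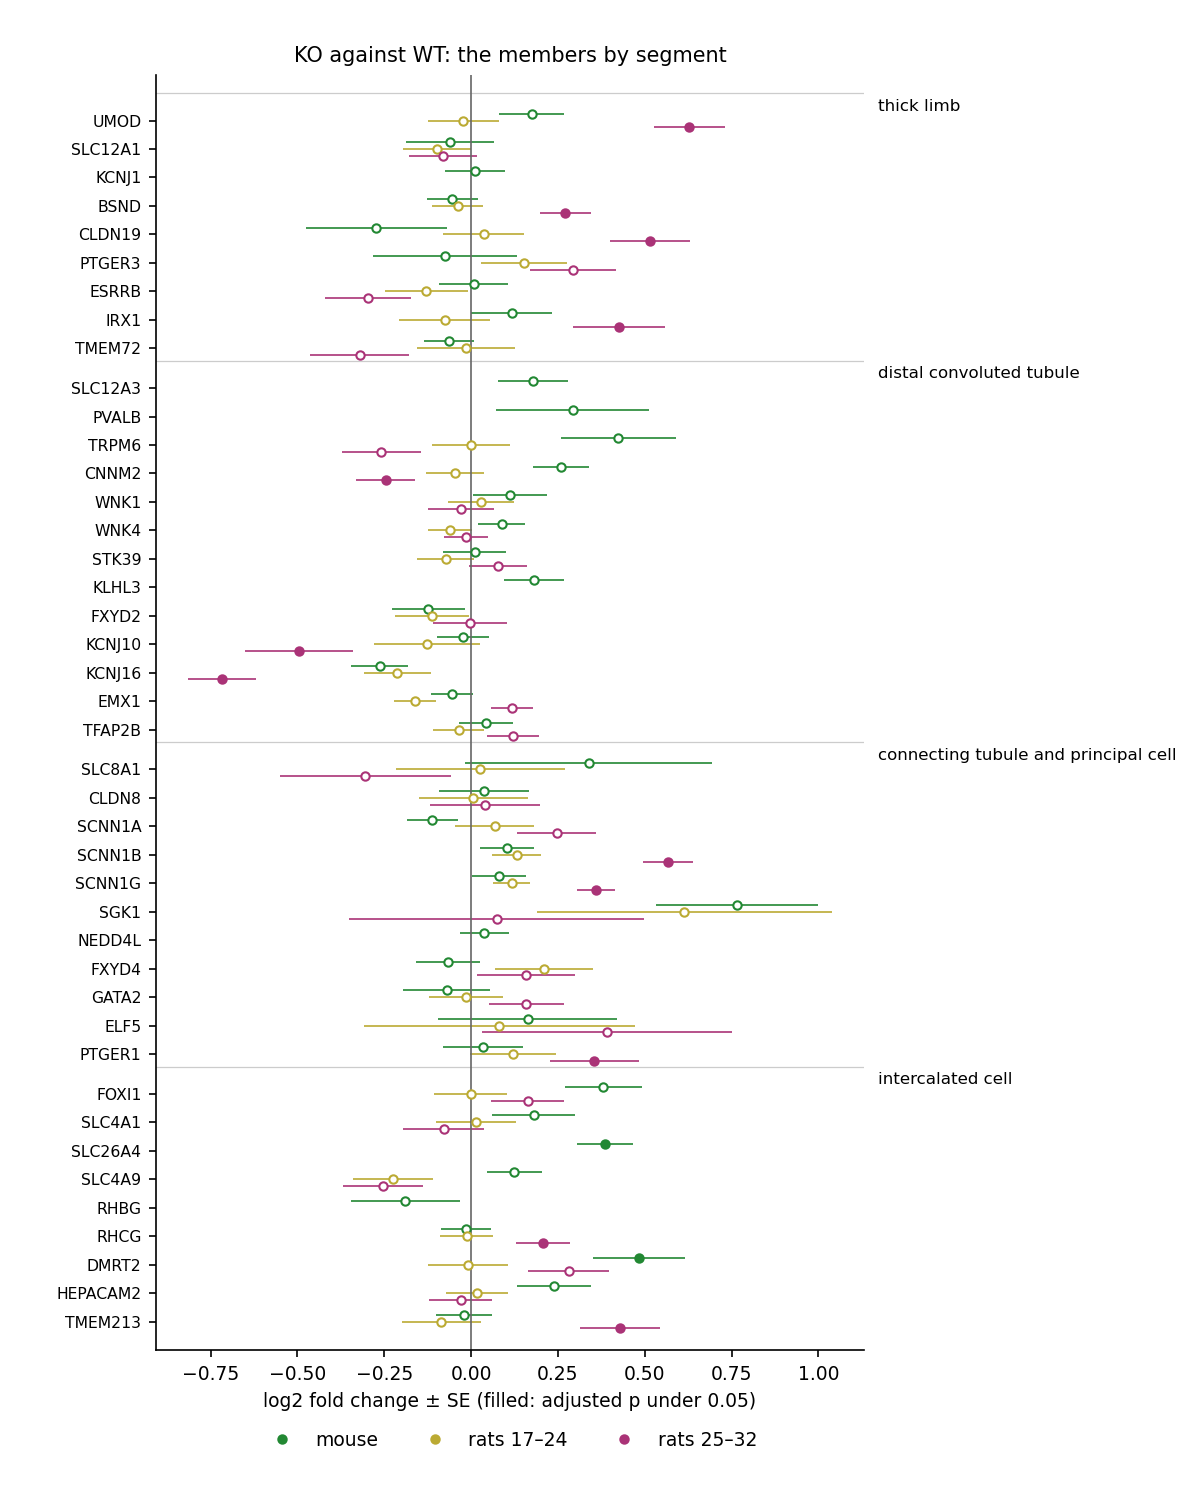
Log2 fold change of KO against WT with its standard error for each tested member (horizontal axis), grouped by nephron segment, in mice (green), rats 17 to 24 (ochre) and rats 25 to 32 (purple); filled points have an adjusted p under 0.05. The filled points are 2 in mice, none in rats 17 to 24 and 12 in rats 25 to 32, where UMOD, CLDN19, SCNN1B and SCNN1G lie to the right and KCNJ10 and KCNJ16 to the left.

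Among thick limb genes, 3 of the 8 tested in rats passed the test over both ranges, all of them higher in KO kidneys. Over all genes 21.4% were higher. UMOD, which encodes uromodulin, was at 1850 to 2846 CPM (median 2209) in WT and 2413 to 3493 CPM (median 2588) in KO rats. The ranges of the genotypes overlapped over all 16 rats, and the log2 fold change was 0.30 ± 0.07 (SE; adjusted p = 0.0026). In rats 25 to 32 the groups did not overlap: UMOD was at 2263, 1876, 1850 and 2139 CPM in WT rats 25, 27, 29 and 31 and at 2573, 3429, 3066 and 3493 CPM in KO rats 26, 28, 30 and 32. There it rose by 0.63 ± 0.10 on the log2 scale, a fold of 1.55 (adjusted p = 8.6e-05). In rats 17 to 24 its values, 2156 to 2846 CPM in WT and 2413 to 2604 CPM in KO, overlapped with a log2 difference of -0.02 ± 0.10.

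CLDN19, a claudin of the thick limb paracellular path for magnesium and calcium, showed the same arrangement of groups. Over all rats it was at 20.7 to 28.5 CPM (median 23.01) in WT and 21.96 to 39.9 CPM (median 28.9) in KO animals. In the 25 to 32 range it was at 26.1, 20.9, 25.3 and 22.3 CPM in WT rats and at 30.21, 39.9 and 35.02 CPM in KO rats 26, 28 and 32, with KO rat 30 just below rat 26, no overlap and a log2 fold change of 0.52 ± 0.12 (adjusted p = 0.00136). Over both ranges the change was 0.28 ± 0.08 (adjusted p = 0.0111). BSND, the barttin subunit of the basolateral chloride channels, rose in rats 25 to 32 from 109 to 139 CPM in WT to 140 to 158 CPM in KO animals (log2 fold change 0.27 ± 0.07, adjusted p = 0.00605). The factor IRX1 rose there too, from 7.35 to 8.91 CPM in WT to 9.35 to 13.2 CPM in KO rats (0.43 ± 0.13, adjusted p = 0.0134), and without KO rat 28 its adjusted p was 0.0622. PTGER3, a prostaglandin E2 receptor, was at 25.2 to 41.5 CPM (median 30.3) in WT and 27.95 to 43.2 CPM (median 36.4) in KO rats over both ranges (0.22 ± 0.09, adjusted p = 0.0481), a call lost when any of 12 of the 16 rats was left out.

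SLC12A1, the sodium-potassium-chloride cotransporter that defines the segment, did not follow UMOD. It was at 373 to 715 CPM (median 582.6) in WT and 362 to 671 CPM (median 542.1) in KO rats, and the genotypes overlapped in both ranges. Its log2 fold change was -0.09 ± 0.07 (adjusted p = 0.316), with an approximate 95% interval of -0.22 to 0.05. In mice SLC12A1 was at 19.6, 22.4, 20.7 and 31.04 in WT and 21.3, 20.96, 24.5 and 21.9 in KO animals on the scaled value, again with overlap. UMOD in mice was at 102, 89.9, 90.7 and 107 in WT and 103, 110, 112 and 114 in KO animals, with a log2 difference of 0.17 ± 0.09 (adjusted p = 0.311). No thick limb gene passed the test in mice by limma, edgeR or DESeq2, nor at an unadjusted p under 0.05 by limma. The 9 tested, which include the apical potassium channel KCNJ1 (0.01 ± 0.09), ran from -0.27 to 0.17. The orphan receptor ESRRB and TMEM72, listed for the thick limb, had log2 fold changes of -0.21 ± 0.09 and -0.17 ± 0.10 in rats over both ranges and did not pass.

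**Figure D2:**
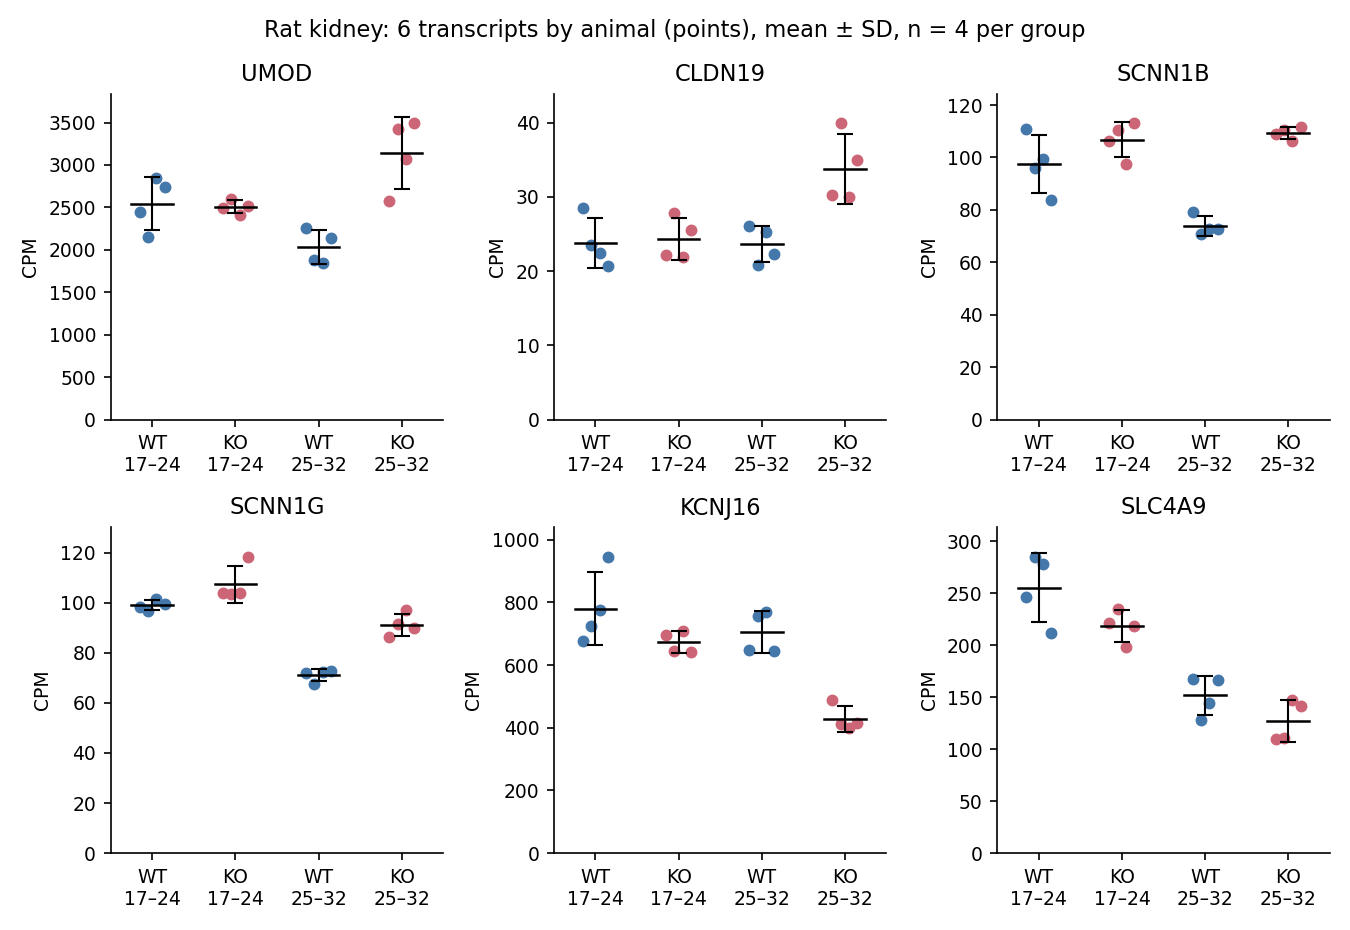
CPM of 6 members in each rat (points; WT blue, KO red), with the group mean and SD as bars, for the 4 groups of genotype and number range (n = 4 each). UMOD, CLDN19, SCNN1B and SCNN1G in KO rats 25 to 32 lie above the WT rats of that range, KCNJ16 lies below them at 399 to 488 CPM, and SLC4A9 is lower in both genotypes of the later range.

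In the distal convoluted tubule list, 2 of 10 members tested in rats passed over both ranges, both lower in KO kidneys. Over all genes 22.6% were lower. The 2 encode subunits that can form the basolateral potassium channel of this segment. Bulk RNA does not show which segment their reads came from, and this was not tested. KCNJ16, which encodes Kir5.1, was at 645 to 946 CPM (median 739.8) in WT and 399 to 710.1 CPM (median 565.5) in KO rats. It fell by 0.46 ± 0.07 on the log2 scale (adjusted p = 3.35e-05). In rats 25 to 32 the groups lay apart, at 648, 756, 768 and 645 CPM in WT and 488, 411, 399 and 415 CPM in KO animals, a log2 fold change of -0.72 ± 0.10 or a fold of 0.608 (adjusted p = 1.3e-05). In rats 17 to 24 they overlapped, at 677 to 946 CPM in WT and 643 to 710.1 CPM in KO, with -0.21 ± 0.10 (adjusted p = 0.232).

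KCNJ10, which encodes the partner subunit Kir4.1, was at 21.2 to 43.03 CPM (median 34.8) in WT and 14.8 to 38.01 CPM (median 30.07) in KO rats (log2 fold change -0.31 ± 0.11, adjusted p = 0.0296). Both genotypes reached lower values in rats 25 to 32, where WT rats 25 and 27 stood at 32.6 and 33.8 CPM and the other WT rats at 23.6 and 21.2 CPM. The call over both ranges was lost when any of 7 of the 16 rats was left out. The magnesium transport gene CNNM2 fell in rats 25 to 32, from 75.2 to 94.3 CPM in WT to 63.4 to 78.5 CPM in KO animals (-0.25 ± 0.08, adjusted p = 0.0223), with overlap. In a fit of those 8 rats alone neither KCNJ10 nor CNNM2 passed (adjusted p = 0.0638 and 0.0587).

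The mouse gave KCNJ16 in the same direction without passing the test. Its scaled value was 20.1, 19.4, 18.4 and 18.7 in WT and 16.01, 14.4, 18.03 and 15.5 in KO mice, which did not overlap, and the log2 difference was -0.26 ± 0.08 (adjusted p = 0.0624, limma). On recovered reads it passed by edgeR and DESeq2 (adjusted p = 0.0488 and 0.00406). SLC12A3, the sodium-chloride cotransporter, was at 46.7, 47.4, 38.8 and 36.4 in WT and 47.6, 49.5, 49.7 and 43.7 in KO mice. These groups overlapped, with 0.18 ± 0.10 (adjusted p = 0.343). No gene of the list passed by limma in mice, where 13 were tested, 2 were higher and 1 lower at an unadjusted p under 0.05, and the differences ran from -0.26 to 0.42. The other members of the WNK pathway, WNK1, WNK4, the kinase STK39 and the ubiquitin ligase adaptor KLHL3, lay between 0.01 and 0.18 in mice. In rats WNK1, STK39, FXYD2, EMX1 and the factor TFAP2B lay between -0.06 and 0.04 over both ranges without passing.

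In the connecting tubule and principal cell list, 3 of 10 members passed in rats over both ranges, all higher in KO kidneys. Over all genes 21.4% were higher. SCNN1B and SCNN1G encode the beta and gamma subunits of the epithelial sodium channel and are neighbours, 96.6 kb apart on chromosome 7 of GRCm38. SCNN1B was at 70.9 to 111 CPM (median 81.6) in WT and 97.5 to 113 CPM (median 109.7) in KO rats. It rose by 0.35 ± 0.05 on the log2 scale (adjusted p = 2.74e-05). In rats 25 to 32 it was at 79.2, 70.9, 72.6 and 72.7 CPM in WT and 109, 110.3, 106 and 112 CPM in KO animals, a fold of 1.48 with no overlap (0.57 ± 0.07, adjusted p = 5.94e-06). In rats 17 to 24 it was at 84.0 to 111 CPM in WT and 97.5 to 113 CPM in KO, with overlap (0.13 ± 0.07, adjusted p = 0.336). KO rats of the ranges overlapped, while the WT rats of the later range all lay below those of the earlier one.

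SCNN1G was at 67.5 to 101 CPM (median 84.6) in WT and 86.4 to 118 CPM (median 100.2) in KO rats and rose by 0.24 ± 0.04 (adjusted p = 8.55e-05). Within each range the genotypes did not overlap: WT rats 25 to 32 were at 71.9, 67.5, 72.5 and 72.6 CPM and KO rats at 86.4, 91.5, 97.0 and 89.9 CPM, while WT rats 17 to 24 were at 96.7 to 101 CPM and KO rats at 103 to 118 CPM. The log2 fold change was 0.36 ± 0.05 in the later range (adjusted p = 4.18e-05) and 0.12 ± 0.05 in the earlier (adjusted p = 0.244). SCNN1A, the alpha subunit that the channel needs, was at 102 to 170.3 CPM (median 129.8) in WT and 120.5 to 193 CPM (median 144) in KO rats, with overlap in both ranges and a log2 fold change of 0.16 ± 0.08 (adjusted p = 0.121).

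PTGER1, another prostaglandin E2 receptor, was at 8.39 to 16.4 CPM (median 11.99) in WT and 11.25 to 18.8 CPM (median 12.8) in KO rats, with overlap (0.24 ± 0.09, adjusted p = 0.0391), and the call was lost when any of 9 of the 16 rats was left out. FXYD4, the principal cell regulator of the sodium pump, was at 10.45 to 17.4 CPM (median 14.45) in WT and 13.45 to 17.5 CPM (median 16.6) in KO rats (0.18 ± 0.10, adjusted p = 0.144). SGK1, the aldosterone-induced kinase that keeps the sodium channel at the surface, varied widely between animals. Most rats stood between 87.3 and 191 CPM, while WT rats 19 and 27 stood at 233 and 271 CPM and KO rat 18 at 433 CPM. Its log2 fold change was 0.34 ± 0.30 in rats (adjusted p = 0.378). In mice it was at 1.59, 3.03, 1.57 and 2.16 in WT and 3.06, 4.18, 3.68 and 2.94 in KO animals, a log2 difference of 0.77 ± 0.23 that did not pass (adjusted p = 0.103).

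None of the 11 genes of this list passed in mice by limma, edgeR or DESeq2, and 1 was higher at an unadjusted p under 0.05 by limma. SCNN1A was at 5.05, 5.03, 5.91 and 5.60 in WT and 4.60, 4.98, 5.15 and 5.23 in KO mice (-0.11 ± 0.07, adjusted p = 0.427). SCNN1B (0.10 ± 0.08) and SCNN1G (0.08 ± 0.08) had overlapping groups there. FXYD4 was at 0.435, 0.43, 0.332 and 0.449 in WT and 0.386, 0.405, 0.387 and 0.383 in KO mice (-0.07 ± 0.09, adjusted p = 0.757). The remaining members were the sodium-calcium exchanger SLC8A1, the claudin CLDN8, the factors GATA2 and ELF5 and, in mice, the ubiquitin ligase NEDD4L. They lay between -0.07 and 0.34 in mice and between -0.14 and 0.24 in rats over both ranges, and none passed.

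Both mouse calls were in the intercalated cell list. SLC26A4, which encodes pendrin, the chloride-bicarbonate exchanger of base-secreting intercalated cells, was at 2.98, 3.32, 2.54 and 3.02 in WT mice 1, 2, 4 and 7 and at 3.90, 3.63, 4.13 and 3.79 in KO mice 3, 5, 6 and 8. The groups did not overlap, and it rose by 0.39 ± 0.08 on the log2 scale, a fold of 1.31 (adjusted p = 0.00775, limma). This call was kept whichever mouse was left out, with adjusted p between 0.00234 and 0.0378. The factor DMRT2, expressed in intercalated cells, was at 0.169, 0.139, 0.138 and 0.189 in WT and 0.228, 0.246, 0.255 and 0.175 in KO mice (0.48 ± 0.13, adjusted p = 0.0374). KO mouse 8 lay within the WT values, and the call was lost when any of 5 of the 8 mice was left out.

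FOXI1, on which intercalated cell identity depends, was at 1.07, 1.12, 1.04 and 0.844 in WT and 1.12, 1.51, 1.48 and 1.22 in KO mice, where the lowest KO value was just above the highest WT value. The log2 difference of 0.38 ± 0.11 did not pass (adjusted p = 0.0553, limma), while DESeq2 on recovered reads gave an adjusted p of 0.0182. SLC4A1, the basolateral anion exchanger of acid-secreting cells, overlapped between WT mice at 1.65, 1.83, 1.52 and 1.83 and KO mice at 1.89, 1.97, 2.42 and 1.54 (0.18 ± 0.12, adjusted p = 0.435). RHBG and RHCG, the ammonia channels, had differences of -0.19 and -0.01, and the 9 members ran from -0.19 to 0.48.

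**Figure D3:**
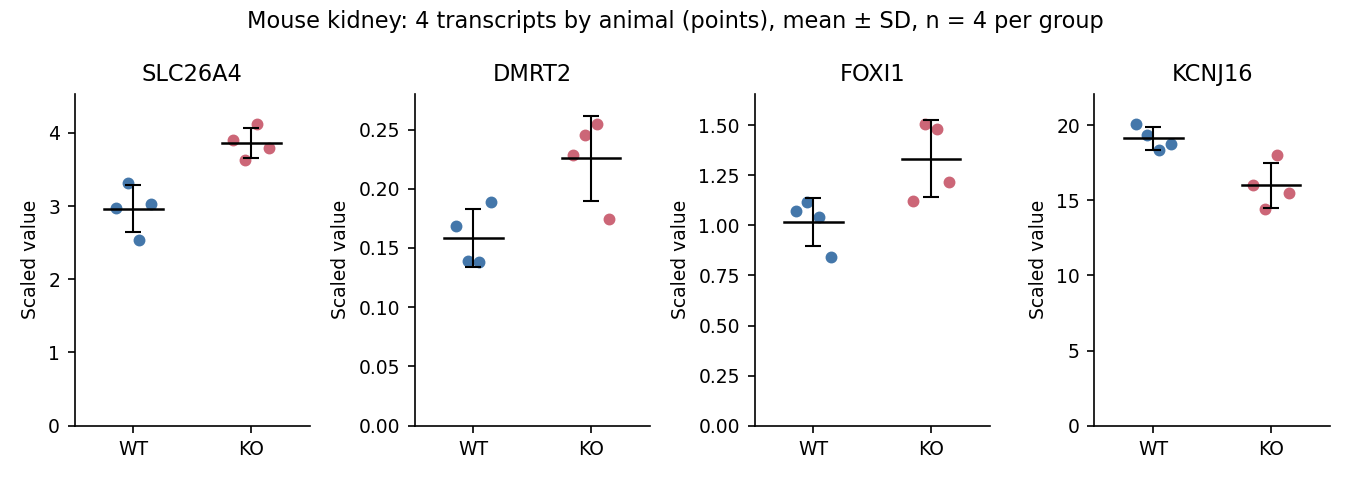
Scaled value (reads relative to the library's 75th percentile) of 4 members in each mouse (points; WT blue, KO red) with group mean and SD as bars, n = 4 per group. SLC26A4, FOXI1 and KCNJ16 do not overlap between genotypes, while DMRT2 does through KO mouse 8.

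In rats, 1 of 7 intercalated cell members passed over both ranges, and it was lower, beside 22.6% of all genes. SLC4A9, an anion exchanger of base-secreting cells, was at 128 to 285 CPM (median 189.7) in WT and 110 to 235 CPM (median 173) in KO animals, with overlap. It fell by 0.24 ± 0.08 (adjusted p = 0.0241), a call lost when any of 6 of the 16 rats was left out. In mice its difference was 0.12 ± 0.08 (adjusted p = 0.41). FOXI1 was at 65.99 to 113.5 CPM (median 82.9) in WT and 78.99 to 110.3 CPM (median 86.3) in KO rats, with overlap (0.08 ± 0.07, adjusted p = 0.396). SLC4A1 was at 218 to 386 CPM (median 287.8) in WT and 188 to 381 CPM (median 302) in KO rats, with overlap (-0.03 ± 0.08, adjusted p = 0.774).

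In rats 25 to 32 alone, RHCG and TMEM213, a membrane protein gene of intercalated cells, rose. TMEM213 was at 65.5, 49.2, 56.8 and 59.3 CPM in WT and 71.2, 87.4, 68.5 and 83.3 CPM in KO rats, with no overlap (0.43 ± 0.11, adjusted p = 0.00532). RHCG went from 192 to 249 CPM to 224 to 269 CPM, with overlap (0.21 ± 0.08, adjusted p = 0.0333). The remaining intercalated cell members of that range, among them DMRT2 and HEPACAM2, an adhesion protein gene, ran from -0.25 to 0.28 without passing.

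Whether KO and WT differed by more in the later range was tested as an interaction. The change was higher in rats 25 to 32 than in rats 17 to 24 for 5 of 35 members and lower for 1, beside 7.1% and 7.64% of all genes. UMOD had the widest gap, a difference between log2 fold changes of 0.65 ± 0.14 (adjusted p = 0.0079), and it held whichever rat was left out. For SCNN1B the difference was 0.44 ± 0.10 (adjusted p = 0.00983), and for KCNJ16 it was -0.50 ± 0.14 (adjusted p = 0.0218). TMEM213 (0.51 ± 0.16), EMX1 (0.28 ± 0.09) and SCNN1G (0.24 ± 0.08) passed with adjusted p of 0.0417, 0.0384 and 0.0423, and each lost the call without any of 9, 10 and 12 rats. For CLDN19 and BSND the interaction missed the threshold (0.48 ± 0.16 and 0.31 ± 0.11, adjusted p = 0.056 and 0.0556).

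More members passed between the number ranges within a genotype than between the genotypes. In WT rats, 24 of 35 members were lower in rats 25 to 32 than in rats 17 to 24, a share of 68.6% beside 9.43% of all genes. By edgeR 0 were higher, beside 11.7% of all genes, and DESeq2, limma-voom and an unadjusted p under 0.05 gave 0 higher too. The median log2 fold change of the members was -0.41 and that of all genes 0.01. The 24 were 6 of 8 thick limb genes, 6 of 10 of the distal convoluted tubule, 5 of 10 of the connecting tubule and principal cell, and all 7 of the intercalated cell. The count stayed between 18 and 25 when any 1 rat was left out. Since these WT rats 25 to 32 are also the controls of the KO comparison and of the interaction above, those comparisons share samples, and their values are set side by side only.

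SLC12A1 was at 715, 657, 640.5 and 681 CPM in WT rats 17, 19, 21 and 23 and at 525, 448, 373 and 382 CPM in WT rats 25, 27, 29 and 31. The groups did not overlap, and the log2 fold change was -0.64 ± 0.10 (adjusted p = 0.000174). SLC4A9 had the largest fall of the 24, from 212 to 285 CPM to 128 to 167 CPM (-0.75 ± 0.12, adjusted p = 0.000177). EMX1, a homeobox factor gene listed for the distal convoluted tubule, went from 64.9 to 69.5 CPM to 42.6 to 49.5 CPM (-0.56 ± 0.06, adjusted p = 6.34e-06). SCNN1G fell by 0.48 ± 0.05, BSND by 0.59 ± 0.07 and RHCG by 0.57 ± 0.08, each without overlap. FOXI1 went from 81.3 to 113.5 CPM to 65.99 to 84.6 CPM, with overlap (-0.35 ± 0.10, adjusted p = 0.0231). The 11 members that did not pass include FXYD2 (0.06 ± 0.11), FXYD4 (-0.03 ± 0.14), CNNM2 (0.02 ± 0.08), CLDN19 (-0.01 ± 0.12) and KCNJ16 (-0.15 ± 0.10). Whether their change differed from that of the 24 was not tested.

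In KO rats the later range was lower for 18 of the 35 members and higher for 2, beside 22.8% and 24.2% of all genes, with a median log2 fold change of -0.28 over the members and 0.01 over all genes. This comparison was added after the WT difference had been seen. SLC12A1 fell by 0.62 ± 0.10 in KO rats, close to its fall in WT rats, and SLC4A9 by 0.78 ± 0.12. UMOD went the other way, from 2413 to 2604 CPM to 2573 to 3493 CPM, a log2 fold change of 0.32 ± 0.10 (adjusted p = 0.0157) beside -0.33 ± 0.10 in WT rats (adjusted p = 0.0309). CLDN19 was the other member that was higher, by 0.47 ± 0.11 (adjusted p = 0.00345). SCNN1B (0.03 ± 0.07) and IRX1 (0.03 ± 0.13) differed by less than their standard errors in KO rats.

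**Figure D4:**
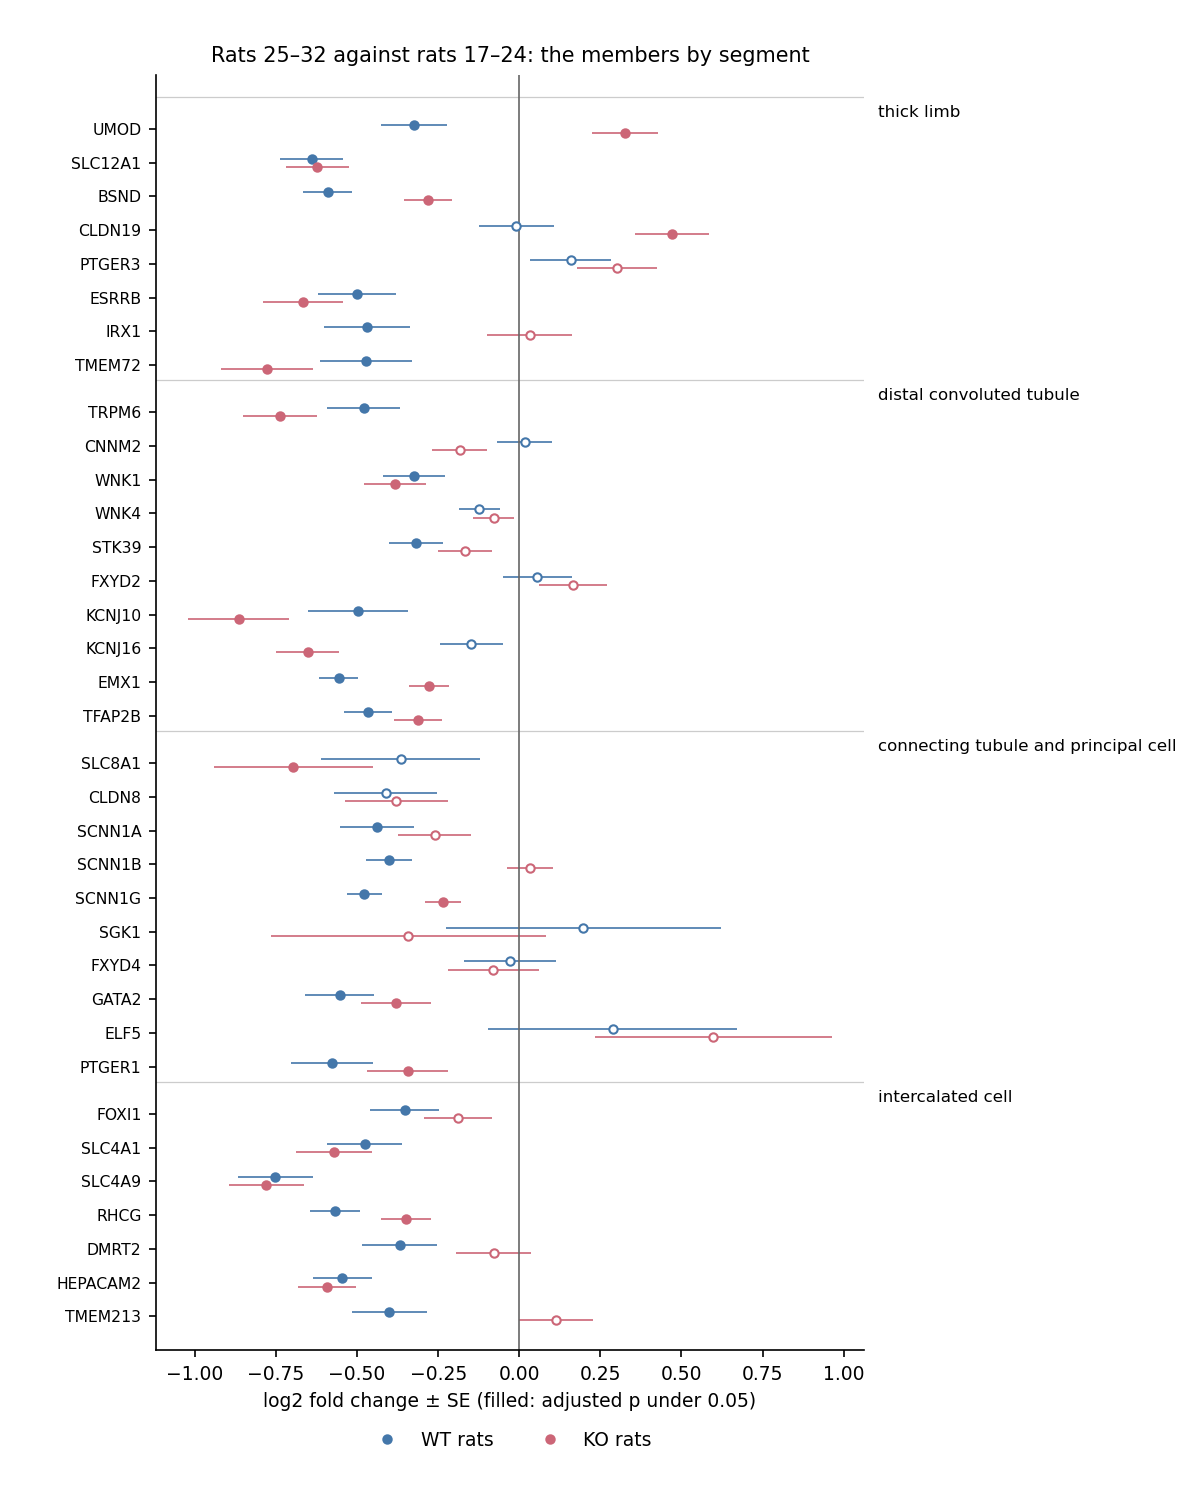
Log2 fold change of rats 25 to 32 against rats 17 to 24 with its standard error for each of the 35 tested members (horizontal axis), by nephron segment, in WT (blue) and KO (red) rats; filled points have an adjusted p under 0.05. In WT rats 24 members are filled on the left and none on the right, and in KO rats 18 are filled on the left and UMOD and CLDN19 on the right.

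Marker genes of other cell types moved with the number range as well. The summed level of 10 proximal tubule markers was 19577 to 22602 CPM in WT rats 17 to 24 and 24379 to 27100.2 CPM in WT rats 25 to 32, and 6 of the 10 were higher and 1 lower there. In KO rats the sum was 16852 to 17808 CPM and 13414 to 16439 CPM. The sum of 5 podocyte markers went from 789 to 939 CPM to 572 to 696 CPM in WT rats, with 4 of 5 lower, and from 775 to 844 CPM to 461 to 574 CPM in KO rats. Among endothelial markers 2 of 5 were lower in WT rats of the later range, and among 6 macrophage markers 3 were higher and 1 lower. In KO rats of the later range 5 of 5 endothelial markers were lower, and 6 of 6 macrophage and 7 of 8 tubular injury genes were higher. The injury sum went from 1403 to 2035 CPM to 4298 to 6319 CPM in KO rats, and was 670.2 to 793 CPM and 629 to 718 CPM in WT rats. Among the 8 injury genes, 3 were nevertheless higher (HAVCR1, VCAM1 and SOX9) and 1 lower (CLU) in WT rats of the later range. HAVCR1 went from a mean of 3.13 to 8.84 CPM there (log2 fold change 1.52 ± 0.22, adjusted p = 0.000134, edgeR). Of the inner medulla list, UPK3A had no read in any rat, and AQP4, the single gene of that list tested, was at 10.4 to 18.3 CPM in WT rats 17 to 24 and 5.38 to 10.9 CPM in WT rats 25 to 32. The part of these marker levels in the distal difference was not tested.

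**Figure D5:**
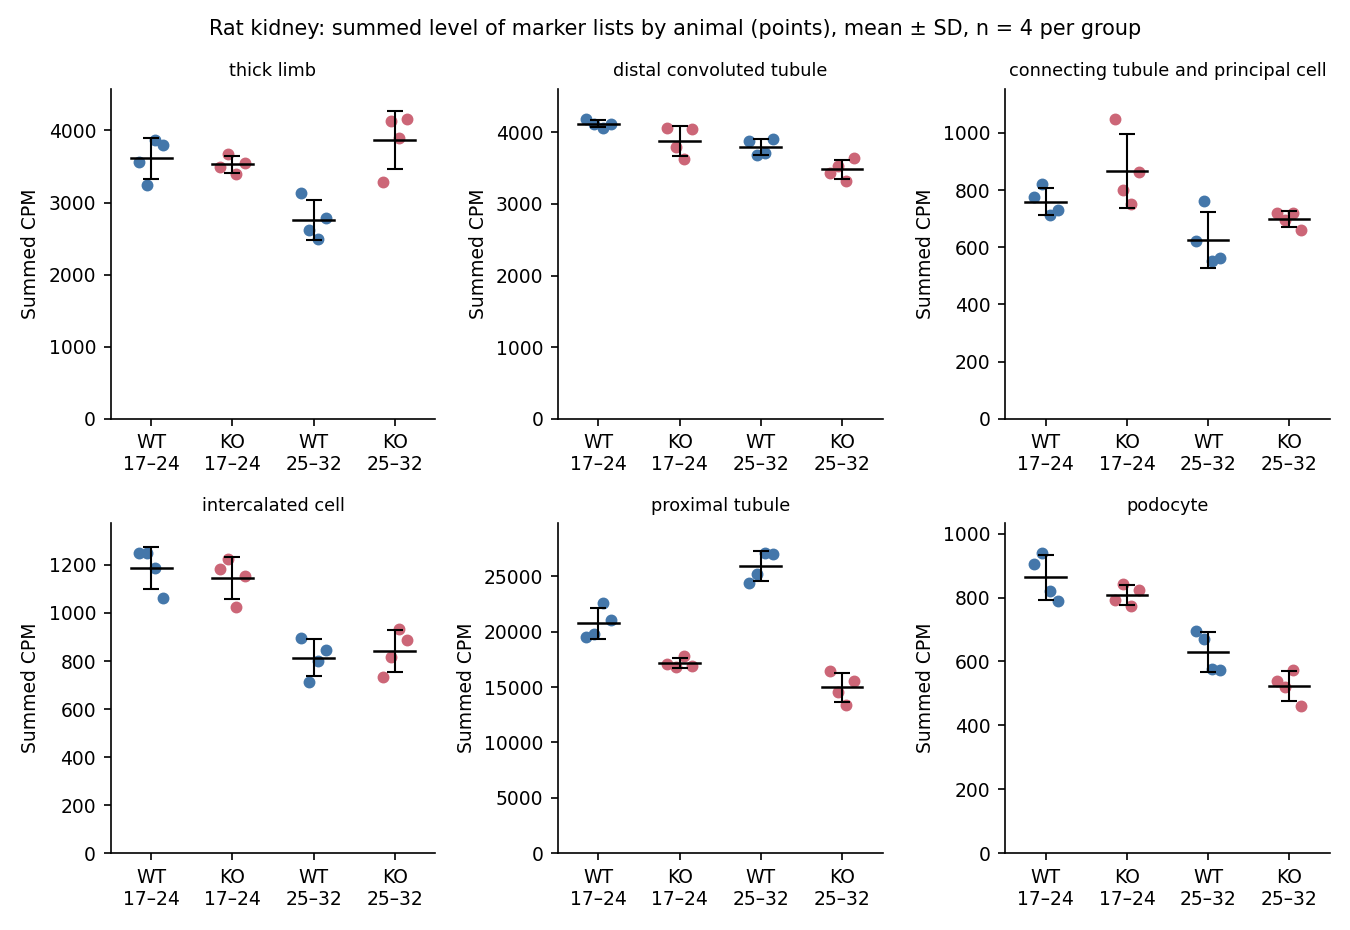
Summed CPM of the members of each segment list and of the proximal tubule and podocyte markers in each rat (points; WT blue, KO red), with group mean and SD as bars, n = 4 per group. The intercalated cell sum is 1062 to 1249 CPM in WT rats 17 to 24 and 714 to 896 CPM in WT rats 25 to 32, and the proximal tubule sum is higher in the later WT rats and lowest in the later KO rats.

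The summed segment levels describe the same groups in other units. The intercalated cell sum over 7 genes was 1062 to 1249 CPM in WT and 1024 to 1224 CPM in KO rats 17 to 24, and 714 to 896 CPM in WT and 734 to 934 CPM in KO rats 25 to 32. It did not overlap between the ranges in either genotype. The thick limb sum, carried mostly by UMOD, was 3240 to 3873 CPM in WT and 3398 to 3678 CPM in KO rats 17 to 24, and 2498 to 3132 CPM in WT and 3284 to 4159 CPM in KO rats 25 to 32. Beside the KO changes of the members, proximal tubule markers were lower in KO rats of both ranges over the whole list (8 of 10 lower over both ranges, 0 higher), and 6 of 6 macrophage, 5 of 5 fibroblast and 7 of 8 tubular injury genes were higher. In mice 1 of 12 proximal tubule markers was lower, and 5 of 6 macrophage, 3 of 5 fibroblast and 4 of 8 tubular injury genes were higher. Their part in the members' changes was not tested.

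Other genes of the same segments, listed beside the members, were read in the same fits. Of 38 such genes tested in rats over both ranges, 9 were higher and 10 lower in KO kidneys, shares of 23.7% and 26.3% beside 21.4% and 22.6% of all genes, with a median log2 fold change of -0.04. In rats 17 to 24 alone 1 was higher (ELF3) and 1 lower (PCBD1), beside 5.05% and 1.91% of all genes. In rats 25 to 32 alone 9 were higher and 12 lower, beside 23.7% and 26.2% of all genes. The change differed between the ranges for 10 of the 38. It was higher in rats 25 to 32 for 3 and lower for 7, beside 7.1% and 7.64% of all genes. The values that follow are means over both ranges. In the thick limb, CLDN10, the claudin of the sodium path, fell by 0.50 ± 0.06 (adjusted p = 9.36e-06), while the phosphatase inhibitor PPP1R1A rose by 0.34 ± 0.09 (adjusted p = 0.0063). CLDN10 was at 128 ± 9.05 CPM (SD, n = 8) in KO and 181 ± 26.5 CPM in WT rats. Among calcium and magnesium genes, the calcium-binding CALB1 (0.36 ± 0.09) and the apical calcium channel TRPV5 (0.29 ± 0.08) rose, and S100G (-0.65 ± 0.17) and PCBD1 (-0.38 ± 0.06) fell. The WNK pathway list had WNK2 higher (1.03 ± 0.32, at a mean of 0.392 CPM in KO and 0.184 in WT rats) and CAB39 (-0.12 ± 0.04) and CUL3 (-0.10 ± 0.04) lower.

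Around the sodium channel, the proteases PRSS8 and KLK1, which can cleave its subunits, were lower in KO rats by 0.43 ± 0.07 and 1.31 ± 0.19 on the log2 scale (adjusted p = 6.03e-05 and 2.96e-05). KLK1 was at 3.70 ± 1.43 CPM (SD, n = 4) in KO and 5.55 ± 0.919 CPM in WT rats 17 to 24, and at 0.397 ± 0.0624 CPM in KO and 1.64 ± 0.195 CPM in WT rats 25 to 32. Its change differed between the ranges by -1.45 ± 0.38 (adjusted p = 0.0194) and that of PRSS8 by -0.43 ± 0.13 (adjusted p = 0.0408). HSD11B2, which protects the mineralocorticoid receptor from corticosterone, had a mean change of 0.21 ± 0.05 (adjusted p = 0.00321), the earlier range (17 to 24) being at -0.07 ± 0.07 and the later at 0.50 ± 0.07. The difference between these was 0.56 ± 0.11 (adjusted p = 0.00287). Among 6 principal cell genes ELF3 rose from 38.3 ± 3.80 to 74.2 ± 20.8 CPM (0.91 ± 0.05, adjusted p = 2.7e-10), and the potassium channel subunit KCNE1 (0.33 ± 0.09) and the factor GATA3 (0.25 ± 0.08) rose. The basolateral water channel AQP3 had a mean change of -0.23 ± 0.08, being at 0.10 ± 0.11 for the earlier range and at -0.55 ± 0.11 for the later, a difference of -0.64 ± 0.16 (adjusted p = 0.0132). Among 9 proton pump genes and partners KCNMA1, a potassium channel, rose in rats (0.61 ± 0.13) and in mice (0.76 ± 0.14, adjusted p = 0.0028, limma). Its level was low, at a mean of 2.81 CPM in KO and 1.86 CPM in WT rats. In mice its mean scaled value was 0.079 in KO and 0.043 in WT animals. Which cells its reads came from was not tested. The pump subunit ATP6V0A4 (-0.33 ± 0.05) and CA12 (-0.48 ± 0.09) fell in rats. The other genes whose change differed between the ranges were ELF3, TRPV5, CUL3, ATP6V0A4, CA12 and KIT.

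In mice, 2 of 47 of these genes were higher and 0 lower, beside 6.6% and 2.38% of all genes. The 2 were KCNMA1 and TSC22D3, a glucocorticoid- and aldosterone-induced gene. TSC22D3 rose from 0.88 ± 0.176 to 1.26 ± 0.0366 on the scaled value (0.53 ± 0.12, adjusted p = 0.017, limma). TSC22D3 was not analysed here in the rat. At an unadjusted p under 0.05, 8 were higher and 4 lower. Beside these, ELF3 (0.26, adjusted p = 0.136) and CLDN10 (-0.33, adjusted p = 0.129) had differences of the same sign in mice as in rats, without passing.

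The change in rats minus that in mice, fitted on 10680 genes found in both tests, was higher for 1 of 35 members and lower for 2, beside 6.69% and 4.78% of all genes. CLDN19 rose in KO rats, and in mice its difference was -0.27 ± 0.20, with values of 0.718, 0.487, 0.922 and 0.832 in WT and 0.573, 0.566, 0.515 and 0.745 in KO mice that overlapped. The difference between species was 0.58 ± 0.19 (adjusted p = 0.0478). CNNM2 differed by -0.36 ± 0.10 (adjusted p = 0.023) and TRPM6, the apical magnesium channel, by -0.52 ± 0.17 (adjusted p = 0.0469). In mice CNNM2 was at 1.21, 1.37, 1.18 and 1.29 in WT and 1.43, 1.54, 1.73 and 1.35 in KO animals, and TRPM6 at 0.891, 1.3, 0.848 and 1.13 in WT and 1.38, 1.403, 1.699 and 1.103 in KO, both with overlap. The CLDN19 and TRPM6 calls were each lost when any of 16 of the 24 animals was left out. SCNN1B missed the threshold (0.29 ± 0.09, adjusted p = 0.0504).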

How the data were processed

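RNA from the kidneys of 8 mice and 16 rats was made into stranded mRNA libraries and sequenced paired-end. The submitters' processing notes name bcl2fastq 2.20, STAR 2.7.3, DESeq2 1.24.0 and R 3.6.1, with the builds mm10 and rn5. The mouse table holds a deposited signal per gene symbol, which the values show the authors made as (reads + 0.5) over the library's 75th percentile of reads plus the same constant. Whole reads were recovered from 98.99% of these values (tolerance 0.01). The rat table holds deposited expected counts, to which the authors added 0.166667 read, and 97.72% came out whole. They were rounded before testing. Symbols are written as for human genes, so rodent genes with one human counterpart can share a row.

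The mouse was tested with limma 3.58.1 (trend, robust) on log2(value + 0.01) for genes with a mean value of at least 0.01, so that fold changes of low genes are understated. The rat was tested with edgeR 4.0.16 quasi-likelihood on genotype by number range with TMM scaling and its expression filter. The difference between species was tested with limma on both tables, the rat reads scaled as the mouse's. The tables were normalised separately, so levels are not compared between species. P-values were adjusted by Benjamini-Hochberg over all genes tested, with a threshold of 0.05. R 4.3.3 and DESeq2 1.42.0 were used here, and approximate intervals of 95% are 1.96 standard errors on either side. Scripts were tested on simulated data.

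The 43 members and all lists were chosen with earlier results of these data known. Members that passed in mice or in rats over both ranges, and the defining genes of each segment, are given in full. Replicates of a group differed by more than counting error (chi-square per degree of freedom at least 8.849). Depth was 19309371 to 44449845 reads on genes. Alternatives were other pseudocounts, filters, scaling and tests, a model without number range, each range alone and leaving out each animal.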

Additional observations from a re-analysis of the deposited data

Results flagged for a closer look

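Of 154 groups of 4 to 8 animals examined, 8 held an animal standing far from the others, close to the 7.7 that chance gives at 1 in 20. In mice, KCNJ1 was at a scaled value of 9.455 in KO mouse 6, with 7.3 to 7.52 in the other KO mice. KLHL3 was at 1.529 in WT mouse 2, with 1.232 to 1.253 in the others, and FXYD4 was at 0.3324 in WT mouse 4, with 0.4301 to 0.449 in the others. In rats over both number ranges, KCNJ16 was at 945.7 CPM in WT rat 23, with 644.9 to 774.9 CPM in the others. SCNN1B was at 97.5 CPM in KO rat 22, with 106.3 to 113.1 CPM in the others. SGK1 was at 433.1 CPM in KO rat 18, with 126.1 to 191.4 CPM in the others. FXYD4 was at 13.45 CPM in KO rat 28, with 15.63 to 17.5 CPM in the others, and DMRT2 at 17.73 CPM in KO rat 26, with 22.17 to 25.11 CPM in the others.

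The genotype change differed between rats 25 to 32 and rats 17 to 24 by a tested interaction for UMOD (0.6499 on the log2 scale), SCNN1B (0.4356), SCNN1G (0.2427), EMX1 (0.2783), TMEM213 (0.5139) and KCNJ16 (-0.5046). It differed between rats and mice for CLDN19 (0.5817), TRPM6 (-0.5189) and CNNM2 (-0.3635).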

How the results depend on the processing

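No member changed direction while called under any alternative. Without number range in the model, 2 members were higher and 1 lower in KO rats over both ranges, in place of 6 and 3. In mice 1 member was higher both without a filter and with a pseudocount of 1 without a filter, and 1 was lower by edgeR and by DESeq2 on recovered reads. In a fit of rats 25 to 32 alone 1 member was lower. For the difference between ranges DESeq2 gave 8 higher members. Between species 2 were higher with a pseudocount of 0.1 and by edgeR, which gave 1 lower.

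Leaving out 1 animal moved the counts as follows. In mice 1 to 4 members were higher (4 without WT 2, and 1 without KO 5, KO 6 or WT 4) and 0 to 1 lower (1 without KO 6 or WT 2). In rats over both ranges 4 to 10 were higher (10 without WT 25) and 1 to 5 lower (5 without WT 17 or KO 30, and 1 without WT 19, WT 25 or KO 28). In rats 25 to 32, 7 to 13 were higher and 1 to 7 lower (7 without KO 30, 5 without WT 31, and 1 without WT 25 or KO 32). For the difference between ranges 2 to 7 were higher and 1 to 2 lower (2 without KO 30). Between the ranges 18 to 25 were lower in WT rats, and in KO rats 1 to 3 were higher (1 without KO 28) and 16 to 20 lower. Between species 0 to 2 were higher and 0 to 2 lower. UMOD, CLDN19, SCNN1B, SCNN1G and KCNJ16 kept their call in rats over both ranges whichever rat was left out, and SLC26A4 kept its call in mice. The cause of these shifts was not tested.

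No paired analysis was made, because the litter of each animal is not given in the sources used here. Bulk RNA of 4 animals per group limits small changes. CLDN14 and rat PVALB had too few reads to be compared between groups, and the cause of their low counts was not tested.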
